A study of Condylura cristata and Mus musculus with 12 samples.

Results

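Receptors for cytokines, chemokines and ligands of the tumour necrosis factor (TNF) family were examined in sensory ganglia of the star-nosed mole and the mouse. They were taken by symbol alone: interleukin receptors named as Il, a number and r with at most a chain ending, numbered CC and CXC chemokine receptors, numbered TNF receptor superfamily members, interferon alpha and gamma receptor chains, gp130 (Il6st) and the leukaemia inhibitory factor receptor (Lifr). Accessory and orphan chains with other forms of name, such as Il1rap, Il18rap and Il1rl1, fall outside it. The rule took 78 of 33773 rows of the mole table and 74 of 26125 rows of the mouse table, and 74 of the 78 symbols were in both tables. RNA came from the trigeminal ganglia (TG), whose neurons supply the face and, in the mole, the tactile star of the nose, and from the dorsal root ganglia (DRG), whose neurons supply the body. The moles were wild adult males and the mice adult C57BL/6 females, none with a stated treatment or mutation. There were 3 mole libraries per ganglion and 2 mouse libraries per ganglion, and 1 of the mole DRG samples held tissue of 2 individuals. Whole ganglia were used, so neurons, glia, vessels, immune cells and any attached tissue contributed, and fewer cells of a type cannot be told apart from less RNA per cell.

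These receptors carry immune and injury signals across the cell membrane. Type I and II cytokine receptors pair in the membrane and signal through JAK kinases and STAT transcription factors, gp130 being the shared signalling chain of the interleukin-6 family. Chemokine receptors couple to G proteins, and TNF family receptors recruit TRAF or death domain adaptors, many of them leading to NF-kappaB. In sensory ganglia such receptors are known from neurons, satellite glia, Schwann cells and resident macrophages, and several are studied in pain and nerve injury.

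Libraries differed in ways that bear on the values below. The total of counted reads was 8409670 to 11140894 in the mole TG, 9706906 to 92323879 in the mole DRG (mole DRG 3 being the deepest) and 90548941 to 147076817 in the mouse. Mole TG 1 correlated with the other mole TG libraries at rank correlations of 0.855 and 0.866, about as well as with mole DRG 1 (0.862), and mole DRG 2 also stood apart from its ganglion. Another kit was used for the first mole library of each ganglion, which were read at 76 bases. In the mouse, Hox genes of the trunk, which mark DRG, summed to 117 to 129 CPM (counts per 1000000 counted reads) in the libraries labelled TG and to 7.44 to 8.45 CPM in those labelled DRG, against the labels, and 14 of 15 were called in that direction. Hoxd1, which is not in that list and was looked at after the values were seen, measured 22.8 and 21.2 CPM by label in mouse TG 1 and 2 and 21.3 and 44.7 CPM in mouse DRG 1 and 2 (log2 fold change of TG over DRG -0.58, adjusted p 0.456 by edgeR), which overlapped, while in the mole it was higher in the DRG (-2.11, 0.0113). Myelin genes of Schwann cells also ran opposite to the mole. The mouse ganglia are therefore named by label throughout, and every mouse direction rests on those labels. Receptor counts summed to 486 to 608 per 1000000 counted reads in the mole TG and to 635 to 1162 in the mole DRG. In the mouse they summed to 1585 to 2072, and these sums leave out the scaling factors that CPM values use.

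In the mole, 9 of 47 receptors with enough counts to test differed between the ganglia. Higher in the TG were Tnfrsf18 (GITR), Tnfrsf25 (death receptor 3), Tnfrsf12a (Fn14), Cxcr7 and Il11ra. Higher in the DRG were Il13ra1, Tnfrsf11b (osteoprotegerin), Ifngr1 and Tnfrsf21 (death receptor 6). In the mouse, 2 of 68 receptors differed by label, Tnfrsf25 and Il6ra, both higher in the libraries labelled DRG. Tnfrsf25 was called in both species, in opposite directions by label.

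Calls were made with edgeR's quasi-likelihood test over all genes of a table, at a Benjamini-Hochberg adjusted p under 0.05, and each log2 fold change sets TG over DRG and is given ± its standard error (SE). The 9 mole calls are 19.1% of the receptors tested, with 5 toward the TG and 4 toward the DRG. Over all 18078 mole genes tested 23.5% were called, 10.5% toward the TG and 12.9% toward the DRG, so the share among the receptors was near that of all genes. At an unadjusted p under 0.05 there were 19 receptors. Shares of all genes called are given for the main fits only, not for unadjusted p, DESeq2 or other settings, here or below. Those counts are therefore not read as results about the receptors. The median log2 fold change was 0.34 over the receptors and 0.11 over all genes. Every TG library was above every DRG library for 11 receptors and the reverse held for 10, together 44.7%, against 44.1% of all genes (21.7% and 22.4%). In the mouse, the 2 calls are 2.94% of the receptors tested, against 2.33% of 21394 genes (by label, 1.12% toward the TG and 1.21% toward the DRG). With this test edgeR called 0 mouse receptors higher in the libraries labelled TG, where 4 had an unadjusted p under 0.05 and DESeq2 called 3, namely Cxcr7, Il6st and Tnfrsf11a. DESeq2 split its 9 mouse calls into 3 higher by label in the TG and 6 in the DRG. Without overlap between the labelled ganglia were 42 mouse receptors, 61.8%, against 48.1% of all genes. Of these 23 were higher by label in the TG and 19 in the DRG, where all genes gave 24.2% and 23.9%. The median log2 fold change was 0.13 over the mouse receptors and -0.02 over all mouse genes.

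**Figure D1:**
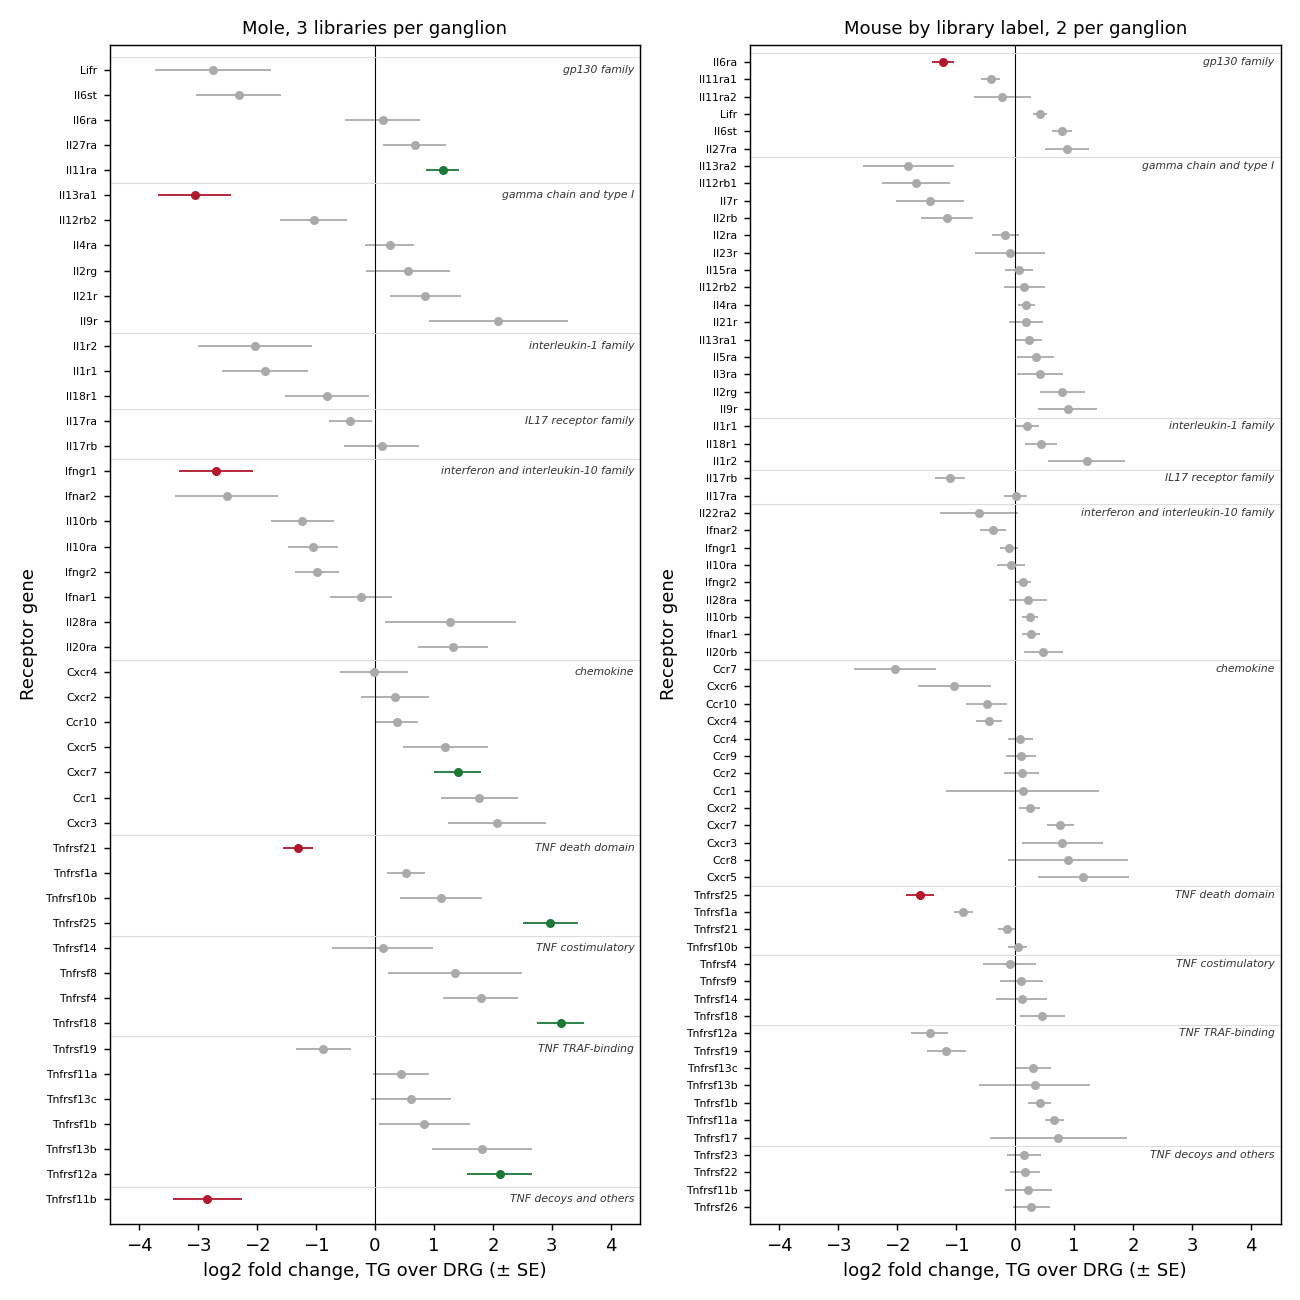
Log2 fold change of TG over DRG with its SE (x axis) for the tested receptor genes (y axis), by family, in the mole (left, 47 genes tested) and by library label in the mouse (right, 68 genes tested), with 1 gene that was not called left out of each panel. Green points were called higher in the TG, red points higher in the DRG, and grey points were not called. The 9 mole calls lie on both sides of 0 and reach 3.15, while both mouse calls lie left of 0.

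The difference between the species was tested as an interaction, the mole log2 fold change minus that of the mouse by label, over symbols in both tables. All 10 libraries were scaled together in that fit, so a difference need not equal the gap between the separate fold changes. It was called for 8 of 73 receptors, 3 more positive in the mole and 5 more negative. Over all 21580 genes 17.0% were called, 4.39% more positive and 12.6% more negative. There were 19 receptors with an unadjusted p under 0.05, and the median difference was 0.04 over the receptors and -0.16 over all genes. With RLE size factors the median of all genes moved to 0.31, so each difference below is also given relative to the median of all genes. DESeq2 called 15 receptors, 9 more positive and 6 more negative, and with counts adjusted for GC content there were 3, of which 2 were more positive. Of 44 receptors tested in both species, 19 had fold changes of opposite sign (43.2%), against 61.7% of 14817 genes tested in both. With the mouse labels exchanged these shares would be 56.8% and 38.3%, so their order rests on the labels. The difference between the species was also fitted with the mouse labels exchanged, which was added after seeing the data, and 5 receptors were then called, all among the 8. These were Tnfrsf18 (3.29, adjusted p 0.0224) and, more negative in the mole, Ifngr1 (-3.14, 0.0371), Il13ra1 (-3.15, 0.0408), Tnfrsf11b (-2.93, 0.0486) and Tnfrsf21 (-1.76, 0.0301). Tnfrsf25 (1.06, adjusted p 0.299), Tnfrsf12a (0.37, 0.789) and Il6st (-1.82, 0.243) were not called in that fit, so the calls of these 3 rest on the labels.

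**Figure D2:**
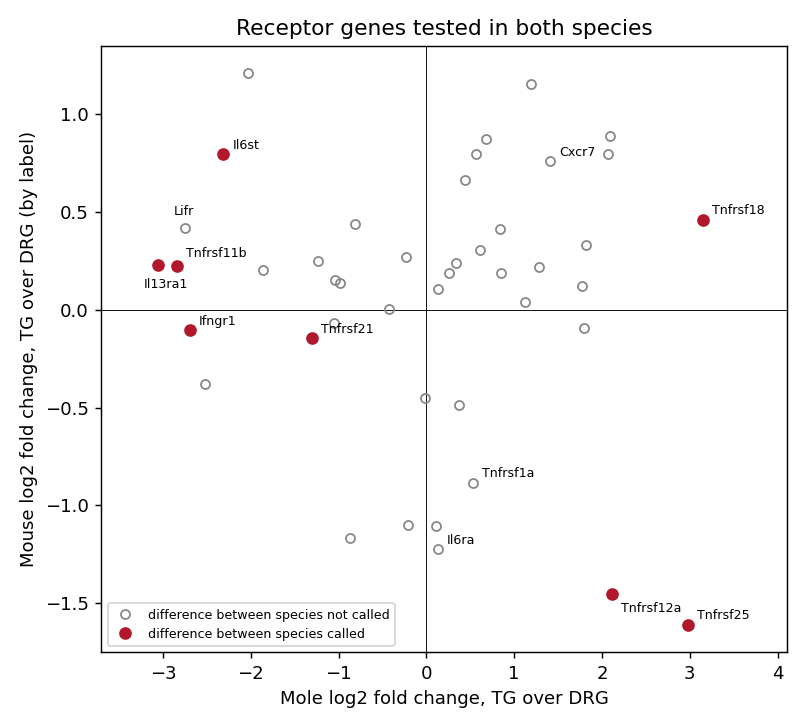
Log2 fold change of TG over DRG in the mole (x axis) and by library label in the mouse (y axis) for the 44 receptor genes tested in both species. Filled red points are the 8 whose difference between species was called, and the scales of the axes differ. Tnfrsf25 lies at 2.98 in the mole and -1.61 in the mouse, and Il6st at -2.31 and 0.80.

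Levels of different genes were compared per length, as CPM per kilobase of the longest mouse coding transcript of the symbol, which stands in for the unknown mole transcript. Receptors without a known length, Il11ra and Cxcr7 among them, could not be ranked. On this scale Tnfrsf21 had the highest mean level of the ranked receptors in both species. It stood at 34.0 ± 2.98 in the mole TG and 83.8 ± 17.9 in the mole DRG (SD, n = 3). By label it stood at 60.5 ± 1.78 in the mouse TG and 66.9 ± 11.6 in the mouse DRG (SD, n = 2). In the mole the next levels per kilobase were those of Ifngr2 (TG 17.9 ± 5.24, DRG 35.2 ± 13.8) and Tnfrsf1a (TG 19.6 ± 2.72, DRG 13.6 ± 4.19). In the mouse they were those of Il6st (by label, TG 60.8 ± 4.05, DRG 35.1 ± 7.67) and Lifr (TG 49.0 ± 0.634, DRG 36.6 ± 1.37). Ranked within the mole, Il6st was 10th and Lifr 7th, and the spread between libraries was as large as the mean in the mole TG. Without regard to length, Tnfrsf21 took 29.3% of the receptor counts of the mole and 5 genes took 73.3%, while in the mouse Il6st took 22.9% and 3 genes took 57.2%.

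**Figure D3:**
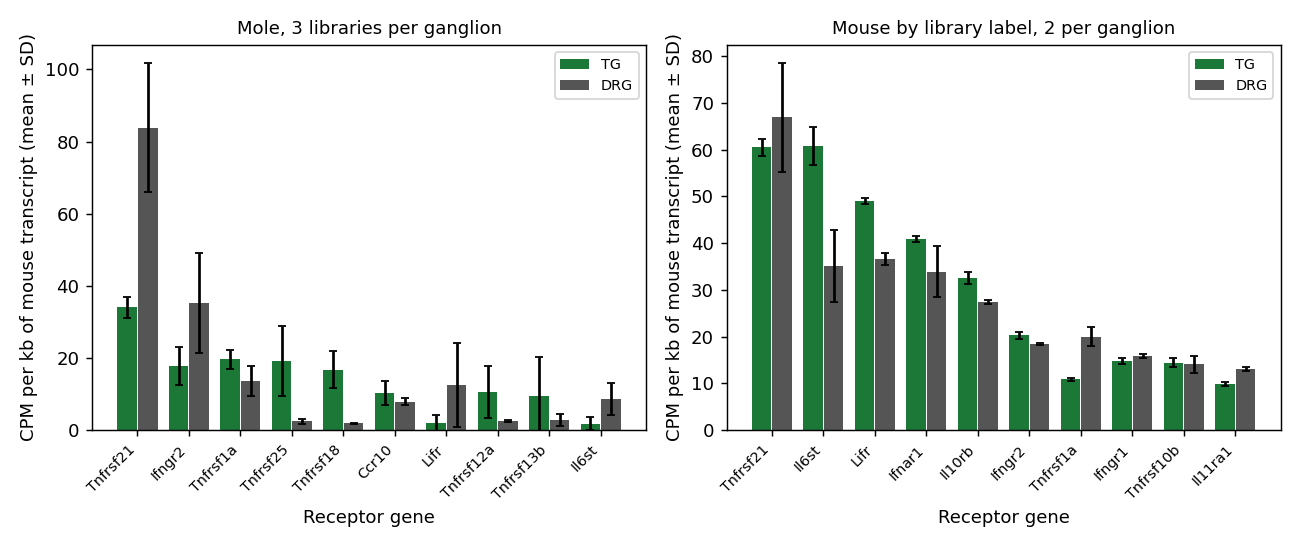
Mean level per kilobase of mouse transcript (y axis, CPM per kb, bars from 0, error bars ± SD) of the 10 receptor genes with the highest level in each species (x axis), in TG (green) and DRG (grey). Tnfrsf21 is highest in both panels, and in the mole its DRG bar reaches 83.8 against 34.0 in the TG. Receptors without a known length are not ranked.

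The gp130 family had 7 symbols in the mole table, 5 of them tested. Il11ra, the binding chain for interleukin-11 that hands its ligand to gp130, was the one called. It measured 35.1, 45.2 and 47.1 CPM in mole TG 1, 2 and 3 and 16.0, 21.3 and 20.3 CPM in mole DRG 1, 2 and 3. The ganglia did not overlap, and the log2 fold change was 1.15 ± 0.28 (adjusted p 0.0265). The call was lost from TruSeq libraries only (0.0603) and without a filter on low counts (0.0841). The mole table also lists the mouse copies Il11ra1 and Il11ra2 as rows of their own, both too low to judge, and how reads were shared among the 3 rows is uncertain. Its adjusted p was 0.119 without mole TG 2, 0.102 without mole TG 3, 0.116 without mole DRG 1 and 0.1 without mole DRG 3.

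Il6st and Lifr, which together form the receptor for leukaemia inhibitory factor, were lower in every mole TG library without passing. Il6st measured 32.8, 7.16 and 5.83 CPM in mole TG 1, 2 and 3 and 62.9, 43.8 and 119 CPM in mole DRG 1, 2 and 3 (log2 fold change -2.31 ± 0.72, adjusted p 0.0531). Lifr measured 42.6, 5.68 and 5.66 CPM in the mole TG and 52.3, 57.8 and 250 CPM in the mole DRG (-2.75 ± 0.98, adjusted p 0.0767). For both genes every DRG library was above every TG library, mole TG 1 stood far above the other TG libraries and mole DRG 3 above the other DRG libraries. Without mole TG 1 both passed, with log2 fold changes of -3.60 for Il6st (adjusted p 0.00896) and -4.48 for Lifr (0.0131). They also passed without mole DRG 2 (0.032 and 0.0468) and with DESeq2 (0.00434 and 0.00571). Both missed the threshold without mole TG 2, TG 3, DRG 1 or DRG 3, with adjusted p up to 0.177 for Il6st and 0.28 for Lifr. They also missed it with RLE size factors, with counts thinned to the smallest library and with counts adjusted for GC content. Lifr missed it with a replicate block as well.

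In the mouse the order of both was turned by label. Il6st stood at 503 and 553 CPM in mouse TG 1 and 2 by label and at 351 and 257 CPM in mouse DRG 1 and 2 (log2 fold change 0.80 ± 0.18, adjusted p 0.083). Lifr stood at 469 and 478 CPM against 344 and 363 CPM (0.42 ± 0.12, adjusted p 0.144). Neither passed in the main fit, and neither overlapped between the labelled ganglia. Of 8 other settings with all mouse libraries, Il6st passed in 4 and Lifr in 1. With 1 mouse library left out in turn, the log2 fold change by label was 0.59 to 1.04 for Il6st and 0.38 to 0.46 for Lifr. Each such fit leaves 1 library in an arm. For Il6st the difference between the species was called, at -3.56 ± 0.96 (adjusted p 0.028), or -3.41 relative to the median of all genes. That call was lost without any of mole TG 2 (0.0544), mole DRG 1 (0.0514), mole DRG 3 (0.0676), mouse TG 1 (0.074), mouse TG 2 (0.0864), mouse DRG 1 (0.0809) and mouse DRG 2 (0.137), and with the GC adjustment (0.0689).

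Il6ra, the binding chain for interleukin-6 (chr3:89864059-89913196 on the minus strand, GRCm38), was called in the mouse and not in the mole. Its level was 12.7 and 14.9 CPM in mouse TG 1 and 2 by label and 33.9 and 30.4 CPM in mouse DRG 1 and 2 (log2 fold change -1.22 ± 0.18, adjusted p 0.0311). The labelled ganglia did not overlap. The call was lost without mouse TG 1 (0.398) or mouse TG 2 (0.274). In the mole Il6ra was at 1.88 to 4.53 CPM in the TG and 1.61 to 5.63 CPM in the DRG (0.13 ± 0.64, adjusted p 0.893), and the difference between the species was not called (0.85 ± 0.74, adjusted p 0.468). Mouse Il11ra1 measured 19.1 and 20.3 CPM by label in the TG and 26.8 and 25.8 CPM in the DRG (-0.42 ± 0.16, adjusted p 0.284); its exons overlap those of Ccl27a on the opposite strand in the annotation.

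**Figure D4:**
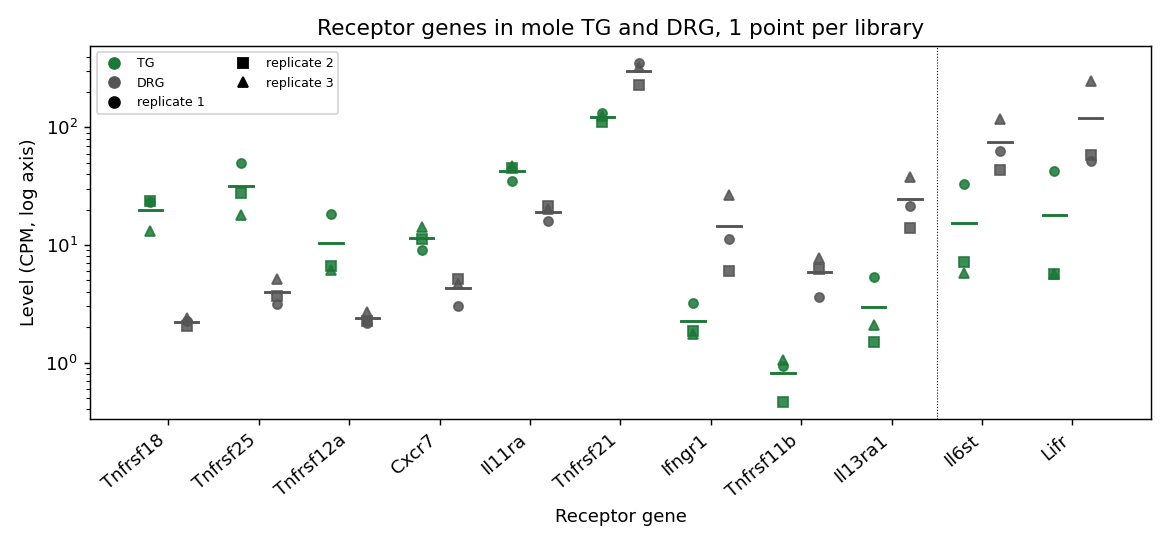
Level (y axis, CPM on a log axis) of 11 receptor genes (x axis) in each mole library, TG in green and DRG in grey, with marker shapes for the replicate and a bar at the mean. Left of the dotted line are the 9 called genes, none with overlapping ganglia. Right of it are Il6st and Lifr, where mole TG 1 lies near the DRG libraries and mole DRG 3 lies highest.

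Among the common gamma chain and other type I receptors, 6 of 15 mole symbols were tested and Il13ra1 was called. Il13ra1 pairs with Il4ra to form the signalling receptor for interleukin-13 and lies at chrX:36112110-36171259 on the plus strand (GRCm38). It measured 5.38, 1.49 and 2.09 CPM in mole TG 1, 2 and 3 and 21.4, 13.9 and 38.1 CPM in mole DRG 1, 2 and 3. Every DRG library was above every TG library, with a log2 fold change of -3.06 ± 0.62 (adjusted p 0.0165). Its partner Il4ra was at 4.75 to 6.62 CPM in the mole TG and 3.71 to 6.17 CPM in the mole DRG (0.25 ± 0.42, adjusted p 0.673). The call of Il13ra1 held with counts adjusted for GC content and from TruSeq libraries only. It was lost without mole TG 2 (0.0672) or TG 3 (0.0621), and without mole DRG 1 (0.0613) or DRG 3 (0.0662).

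By label, mouse Il13ra1 measured 8.78 and 9.10 CPM in the TG and 8.28 and 6.95 CPM in the DRG (log2 fold change 0.23 ± 0.22, adjusted p 0.667). As a difference between the species this was -3.76 ± 0.81 (adjusted p 0.0113), or -3.61 relative to all genes, and it missed the threshold only without mouse DRG 2 (0.0742) among the libraries left out in turn. All 15 mouse members of this group were tested, and edgeR called none of them, with 3 at an unadjusted p under 0.05 and 0 called by DESeq2. The common gamma chain Il2rg was low in both species, at 0.672 to 1.30 CPM in the mole TG and 1.49 to 2.16 CPM by label in the mouse TG. The lymphocyte receptor chains Il2ra, Il2rb, Il7r and Il15ra were too low to judge in the mole.

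None of the 3 receptors of the interleukin-1 family and none of the 2 of the interleukin-17 family was called in either species by edgeR. In the mole 1 of these 5 had an unadjusted p under 0.05 and DESeq2 called 0, and in the mouse 1 had an unadjusted p under 0.05, Il17rb, which DESeq2 called. Il1r1, the signalling receptor for interleukin-1, measured 1.48, 1.02 and 0.783 CPM in the mole TG and 2.37, 1.66 and 7.68 CPM in the mole DRG (log2 fold change -1.86 ± 0.73, adjusted p 0.0986). The ganglia did not overlap, and mole DRG 3 was far the highest. Il1r1 passed the filter on low counts only through the DRG, which partly sets the lack of overlap. Its decoy Il1r2 stood at 13.7 CPM in mole DRG 3 and between 0.522 and 2.29 CPM in the other 5 mole libraries. Il17ra, the chain shared by the interleukin-17 receptors, stood at 6.70 to 11.8 CPM in the mole TG and 10.2 to 13.7 CPM in the mole DRG.

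For interferon and interleukin-10 family receptors, 8 of 11 mole symbols were tested. Ifngr1, the binding chain for interferon gamma (chr10:19591949-19610229 on the plus strand, GRCm38), was the one called. Its level was 3.23, 1.86 and 1.74 CPM in mole TG 1, 2 and 3 and 11.3, 6.05 and 26.4 CPM in mole DRG 1, 2 and 3 (log2 fold change -2.70 ± 0.63, adjusted p 0.0234). The ganglia did not overlap, and mole DRG 3 was highest. The call was lost without mole TG 2 (0.094) or TG 3 (0.0804), and without mole DRG 1 (0.0696) or DRG 3 (0.089), and from TruSeq libraries only (0.054).

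The second chain of that receptor, Ifngr2, was the more abundant per length and was not called. It measured 88.5, 52.9 and 57.3 CPM in the mole TG and 172, 73.4 and 147 CPM in the mole DRG (log2 fold change -0.98 ± 0.38, adjusted p 0.0955). Mole TG 1 was above mole DRG 2, so the ganglia overlapped. Ifngr2 passed without mole TG 1 (-1.31, adjusted p 0.0451) and without mole DRG 2 (-1.35, 0.0169). With any other mole library left out it missed the threshold (adjusted p up to 0.281), and it passed under 1 of 9 other settings. Of the 8 receptors in this group 5 had an unadjusted p under 0.05 toward the DRG, without a share of all genes to set beside it. The median log2 fold change of the group was -1.02. Il10ra and Il10rb, the chains of the interleukin-10 receptor, had log2 fold changes of -1.06 (adjusted p 0.106) and -1.23 (adjusted p 0.126).

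In the mouse edgeR called 0 of 9 of these receptors, 0 had an unadjusted p under 0.05, and DESeq2 called 0. Ifnar1, a chain of the type I interferon receptor, measured 158 and 162 CPM in mouse TG 1 and 2 by label. In mouse DRG 1 and 2 it measured 148 and 117 CPM (log2 fold change 0.27 ± 0.15, adjusted p 0.442). With 1 mouse library left out in turn, the log2 fold change of Ifnar1 was 0.11 to 0.44. Il10rb measured 58.6 and 61.9 CPM against 50.1 and 51.3 CPM by label. Ifngr2 measured 73.3 and 77.0 CPM against 67.9 and 68.6 CPM. For all 3 genes the libraries labelled TG lay above those labelled DRG by less than the test could call. Ifngr1 measured 30.3 and 32.0 CPM in the mouse TG by label and 32.9 and 34.1 CPM in the mouse DRG (-0.10 ± 0.15, adjusted p 0.781). Its difference between the species was -3.09 ± 0.77 (adjusted p 0.0206), or -2.93 relative to all genes. That call was lost without mole TG 2 (0.0505), mouse TG 1 (0.0641), mouse TG 2 (0.074), mouse DRG 1 (0.0775) or mouse DRG 2 (0.098), and with counts adjusted for GC content (0.0606).

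Of 17 chemokine receptors, 8 were tested in the mole and 14 in the mouse. Cxcr7, an atypical receptor that takes up Cxcl12 without coupling to G proteins, was called in the mole. It measured 9.01, 11.2 and 14.1 CPM in mole TG 1, 2 and 3 and 3.04, 5.17 and 4.70 CPM in mole DRG 1, 2 and 3 (log2 fold change 1.41 ± 0.40, adjusted p 0.0411). The ganglia did not overlap. The call was lost without mole TG 2 (0.136) or TG 3 (0.148), and without mole DRG 1 (0.153) or DRG 3 (0.124), without a filter on low counts (0.125), with the GC adjustment (0.0536), with a replicate block (0.0575) and from TruSeq libraries only (0.0935). Cxcr7 has no GC value of its own.

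Cxcr4, the signalling receptor for the same ligand, overlapped between the mole ganglia at 1.58 to 6.99 CPM in the TG and 3.93 to 5.32 CPM in the DRG (log2 fold change -0.01 ± 0.58, adjusted p 0.989). Ccr10 had the highest level per length among the mole chemokine receptors with a known length. It measured 22.7, 18.5 and 11.5 CPM in the mole TG and 13.6, 12.0 and 15.1 CPM in the mole DRG (0.37 ± 0.35, adjusted p 0.465), and its sign turned with counts adjusted for GC content (-0.47). Ccr1 and Cxcr3, receptors of myeloid and T cells, stood higher in every mole TG library and did not pass (1.77 ± 0.66, adjusted p 0.086, and 2.07 ± 0.83, adjusted p 0.104). They rest on few reads, 96 and 105 over the 6 mole libraries. Both passed the filter on low counts only through the TG, which partly sets that separation.

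In the mouse edgeR called 0 of the 14, with 2 at an unadjusted p under 0.05, and DESeq2 called Cxcr7. Mouse Cxcr7 measured 12.1 and 10.6 CPM by label in the TG and 6.01 and 7.37 CPM in the DRG (log2 fold change 0.76 ± 0.23, adjusted p 0.17), without overlap. Cxcr2, best known from neutrophils, had the highest level per length of the mouse chemokine receptors with a known length, at 25.8 to 35.1 CPM. Macrophage markers, a cell type in which several chemokine receptors are known, summed to 280 to 452 CPM in the mole TG and 120 to 133 CPM in the mole DRG, and 4 of 14 tested were higher in the TG. In the mouse they summed by label to 81.4 to 81.7 CPM in the TG and 117 to 149 CPM in the DRG, with 0 of 15 called by edgeR, 6 at an unadjusted p under 0.05 and 4 called by DESeq2. No gene of the list was at 0 in all libraries of a species, and the part of these cells in the receptor values was not tested.

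Among the death domain receptors of the TNF family, Tnfrsf25 was called in both species. Tnfrsf25, a receptor for Tnfsf15 known from lymphocytes, lies at chr4:152115934-152120119 on the plus strand of the mouse genome (GRCm38). It measured 49.6, 27.9 and 17.8 CPM in mole TG 1, 2 and 3 and 3.13, 3.71 and 5.15 CPM in mole DRG 1, 2 and 3. Each TG library was well above each DRG library, with a log2 fold change of 2.98 ± 0.47 (adjusted p 0.0101). In the mouse it measured 3.11 and 3.01 CPM by label in the TG and 8.76 and 9.94 CPM in the DRG (-1.61 ± 0.24, adjusted p 0.0308), again without overlap and in the other direction. The difference between the species was 4.12 ± 0.64 (adjusted p 0.00325), or 4.28 relative to all genes.

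With each of the 10 libraries left out in turn, that difference stayed between 3.61 and 4.66. It passed under 10 of 11 other settings, with adjusted p up to 0.0384, but not with the mouse labels exchanged (0.299). The z test, which is among these settings, uses a normal distribution and so takes no account of the few libraries. The mole call of Tnfrsf25 was lost without mole DRG 1 (0.0557) and with GC offsets plus a replicate block (0.0681), and held without any other library. The mouse call was lost without mouse TG 1 (0.316) or mouse TG 2 (0.323), and with GC offsets plus the block (0.0694). Its ligand Tnfsf15 was not called by edgeR in the mole (log2 fold change -1.05, adjusted p 0.206) or by label in the mouse (-0.08, 0.949).

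Tnfrsf21, a receptor known to bind the amyloid precursor protein and to act in neurons, was higher in the mole DRG. It lies at chr17:43016555-43089189 on the plus strand (GRCm38). It measured 134, 112 and 124 CPM in mole TG 1, 2 and 3 and 354, 231 and 327 CPM in mole DRG 1, 2 and 3 (log2 fold change -1.30 ± 0.26, adjusted p 0.0157). The lowest DRG library lay above the highest TG library, and the SD was 10.8 CPM in the TG and 65.0 CPM in the DRG (n = 3). The call held under all 9 other settings tried, the GC adjustment and the fit of TruSeq libraries included. It was lost without mole TG 2 (0.0888) or TG 3 (0.0676), and without mole DRG 1 (0.0633) or DRG 3 (0.0628), while its log2 fold change stayed between -1.54 and -1.23.

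Mouse Tnfrsf21 measured 215 and 224 CPM by label in the TG and 213 and 273 CPM in the DRG (log2 fold change -0.15 ± 0.15, adjusted p 0.697), and the labelled ganglia overlapped. The difference between the species was -1.63 ± 0.39 (adjusted p 0.018), or -1.47 relative to all genes. It was lost without mole TG 2 (0.0512), mole DRG 3 (0.0569), mouse TG 1 (0.0657), mouse TG 2 (0.0778), mouse DRG 1 (0.0737) or mouse DRG 2 (0.0626), and with the GC adjustment (0.0512).

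Tnfrsf1a, the widely expressed TNF receptor 1, was not called in either species. In the mole it measured 48.0, 36.3 and 42.5 CPM in the TG and 38.2, 20.1 and 29.7 CPM in the DRG (log2 fold change 0.53 ± 0.32, adjusted p 0.253), and its sign turned with counts adjusted for GC content (-0.16). In the mouse it measured 22.8 and 23.9 CPM by label in the TG and 40.1 and 46.1 CPM in the DRG, without overlap (-0.88 ± 0.16, adjusted p 0.0503). Among 8 other settings mouse Tnfrsf1a passed in 5, DESeq2 included (0.000232). It missed the threshold with RLE size factors, a replicate block and GC offsets plus the block. With 1 mouse library left out in turn, its log2 fold change by label was -0.98 to -0.78. Tnfrsf10b, a receptor for the ligand TRAIL, was level by label in the mouse at 48.2 and 43.7 CPM against 49.0 and 40.4 CPM.

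Costimulatory receptors of the TNF family, known from activated T cells, had 4 of 5 members tested in each species. Tnfrsf18 was the receptor with the largest log2 fold change of the 47 tested in the mole. It lies at chr4:156026164-156028895 on the plus strand (GRCm38). Its level was 23.3, 23.5 and 13.1 CPM in mole TG 1, 2 and 3 and 2.28, 2.05 and 2.38 CPM in mole DRG 1, 2 and 3. The lowest TG library was several times above the highest DRG library, with a log2 fold change of 3.15 ± 0.40 (adjusted p 0.0077). This call passed with each of the 6 libraries left out in turn (highest adjusted p 0.0465) and under 9 of 9 other settings (highest 0.0347), the only receptor for which that held.

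Mouse Tnfrsf18 measured 7.23 and 5.26 CPM by label in the TG and 6.02 and 3.03 CPM in the DRG (log2 fold change 0.46 ± 0.38, adjusted p 0.61), with overlap. The difference between the species was 2.23 ± 0.62 (adjusted p 0.0314), or 2.38 relative to all genes. It was lost without mole TG 2 (0.0783), mole DRG 1 (0.0598), mouse TG 1 (0.0798), mouse TG 2 (0.132) or mouse DRG 1 (0.117), from TruSeq libraries only (0.0522) and with the GC adjustment (0.12). Tnfrsf4 (OX40) also stood higher in every mole TG library, at 8.07, 4.84 and 3.39 CPM against 0.855, 0.976 and 2.71 CPM, and did not pass (1.79 ± 0.64, adjusted p 0.0782). Tnfrsf4 passed the filter on low counts only through the TG, which partly sets that separation. Its relative Tnfrsf9 (4-1BB) was too low to judge in the mole.

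Markers of T and NK cells summed to 11.7 to 23.8 CPM in the mole TG and 4.18 to 20.5 CPM in the mole DRG, ranges that overlapped, and 1 of 7 tested, Cd4, was higher in the TG. B cell markers summed to 13.7 to 26.6 CPM and 4.08 to 16.9 CPM, with 1 of 6 higher in the TG. Neither list had a gene at 0 in all mole libraries. The part of lymphocytes in the values of Tnfrsf18, Tnfrsf25 and Tnfrsf4 was not tested.

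Among receptors that bind TRAF adaptors without a death domain, 6 of 7 were tested in the mole and Tnfrsf12a was called. Tnfrsf12a, known as Fn14 and as a gene induced by growth factors and injury, lies at chr17:23675445-23677468 on the minus strand (GRCm38). It measured 18.4, 6.61 and 6.09 CPM in mole TG 1, 2 and 3 and 2.18, 2.25 and 2.70 CPM in mole DRG 1, 2 and 3 (log2 fold change 2.11 ± 0.55, adjusted p 0.0319). The ganglia did not overlap, and mole TG 1 was well above the other TG libraries. Without mole TG 1 the log2 fold change was 1.35 (adjusted p 0.0539). The call was lost also without mole TG 2 (0.0738) or TG 3 (0.0575), and without mole DRG 1 (0.123) or DRG 3 (0.107), from TruSeq libraries only (0.134), with the GC adjustment (0.179) and with a replicate block (0.0535).

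In the mouse, Tnfrsf12a leaned the other way by label, at 2.89 and 4.22 CPM in the TG and 8.10 and 11.4 CPM in the DRG (log2 fold change -1.45 ± 0.31, adjusted p 0.0754). The labelled ganglia did not overlap, and DESeq2 called it. Between the species the difference was 3.11 ± 0.77 (adjusted p 0.0198), or 3.26 relative to all genes. It was lost without mouse TG 1 (0.0928), mouse TG 2 (0.0664) or mouse DRG 2 (0.0828) and with the GC adjustment (0.0979), and it was 0.37 (0.789) with the mouse labels exchanged. Tnfrsf12a and Tnfrsf25 were thus the only receptors called as more positive in the mole whose mouse values lay below 0 by label.

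Tnfrsf13b (TACI), a B cell receptor, was set by 1 library in the mole. Mole TG 1 gave 55.8 CPM, while mole TG 2 and 3 gave 7.91 and 8.97 CPM, and it measured 11.6, 5.76 and 3.43 CPM in the mole DRG (log2 fold change 1.81 ± 0.84, adjusted p 0.152). Without mole TG 1 its log2 fold change was 0.23. Surface epithelium markers were also far higher in mole TG 1, their sum in the mole TG running from 40.2 to 1322 CPM with mole TG 1 the highest, against 10.5 to 27.6 CPM in the mole DRG, and 4 of 9 were called higher in the TG. The part of that tissue in the values of Tnfrsf12a and Tnfrsf13b was not tested. Tnfrsf11a (RANK) was level in the mole at 6.27 to 7.93 CPM in the TG and 2.64 to 7.79 CPM in the DRG. In the mouse it measured 66.1 and 72.0 CPM by label in the TG and 48.6 and 38.6 CPM in the DRG (0.66 ± 0.17, adjusted p 0.11) and DESeq2 called it.

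Of the decoy receptors only Tnfrsf11b had enough counts in the mole. Tnfrsf11b is a secreted protein that binds the RANK ligand and limits bone resorption (chr15:54250619-54278484 on the minus strand, GRCm38). It measured 0.941, 0.465 and 1.04 CPM in mole TG 1, 2 and 3 and 3.61, 6.25 and 7.71 CPM in mole DRG 1, 2 and 3 (log2 fold change -2.84 ± 0.58, adjusted p 0.0167). Every DRG library was above every TG library. With 7, 5 and 12 reads in mole TG 1, 2 and 3, Tnfrsf11b passed the filter on low counts only through the DRG. The filter therefore partly sets that separation, which is not support of its own. The call was lost without mole TG 2 (0.0774) or TG 3 (0.0569), and without mole DRG 1 (0.0529) or DRG 3 (0.0688), and with the GC adjustment (0.0576). Mouse Tnfrsf11b measured 1.35 and 1.83 CPM by label in the TG and 1.62 and 1.10 CPM in the DRG, with overlap (0.22 ± 0.39, adjusted p 0.829). Between the species the difference was -3.53 ± 0.80 (adjusted p 0.0141), or -3.37 relative to all genes. It was lost without mouse TG 2 (0.0713) or mouse DRG 2 (0.0896) and with the GC adjustment (0.0599). Neutrophil and marrow markers, which name the cells found next to bone, summed to 212 to 242 CPM in the mole TG. They summed to 1245, 144 and 1015 CPM in mole DRG 1, 2 and 3, so mole DRG 2 lay below every TG library. Of these markers 4 of 8 were called higher in the DRG, and their part in the Tnfrsf11b values was not tested.

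GC content of the mouse transcript was 55.7% to 59.4% for the 3 of 5 called higher in the TG that had a value, and 41.2% to 52.4% for the 4 called higher in the DRG. Across the 44 of 47 tested mole receptors with a value, the rank correlation of log2 fold change with GC content was 0.53 and with transcript length -0.42, while across 66 of 68 mouse receptors they were -0.02 and 0.04. Over all genes with a value they were 0.57 and -0.27 in the mole (13665 of 18078 genes tested) and -0.27 and 0.08 in the mouse, and since under 80% of the mole genes had a value the first pair is void as a check over all mole genes. These are correlations across genes, which share the same libraries and are not independent, and the mouse sequence stands in for that of the mole. With counts adjusted for GC content, 7 mole receptors were called, 6 of them among the 9, namely Ifngr1, Il11ra, Il13ra1, Tnfrsf18, Tnfrsf21 and Tnfrsf25. Il11ra has no GC value and was left unadjusted.

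**Figure D5:**
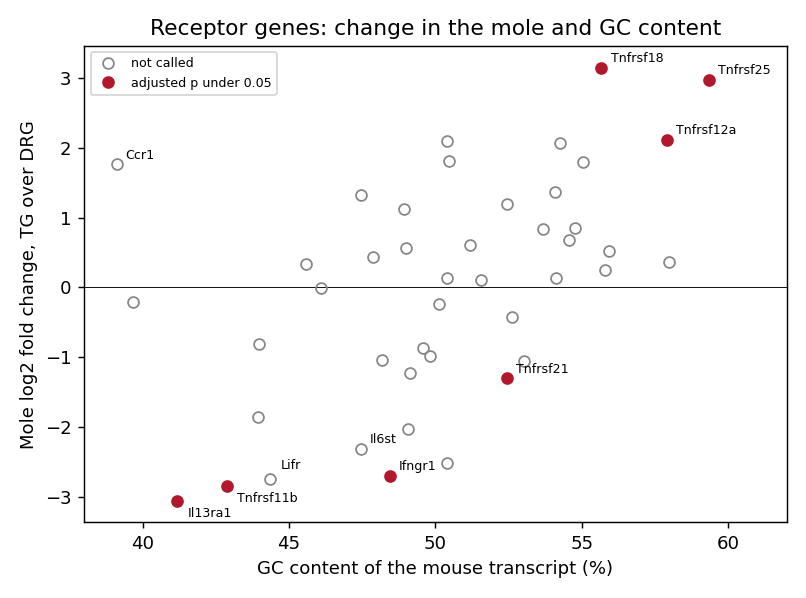
Mole log2 fold change of TG over DRG (y axis) against the GC content of the mouse transcript of the same symbol (x axis, %) for the 44 tested receptor genes with a value. Filled points were called. The called genes above 0 lie at 55.7% to 59.4% and those below 0 at 41.2% to 52.4%, and Ccr1 lies high at a low GC content without being called.

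A list of receptors of the gp130 family and its relatives outside the symbol rule held 5 genes, all tested in both species. In the mole 3 were called, 2 toward the TG and 1 toward the DRG, where 23.5% of all genes were called. Csf3r (log2 fold change -1.02, adjusted p 0.291) and Lepr (-1.70, 0.0839), which are relatives that do not signal through gp130, were not called. Osmr, which joins gp130 to form the oncostatin M receptor, was at 2.05 ± 1.38 CPM in the TG and 46.2 ± 27.8 CPM in the DRG (SD, n = 3), a log2 fold change of -4.49 ± 0.72 (adjusted p 0.0105). Cntfr, the binding chain for ciliary neurotrophic factor, had a log2 fold change of 0.82 (adjusted p 0.0408). In the mouse, Osmr was the 1 of 5 called, against 2.33% of all genes, and by label it was higher in the TG, at 69.4 ± 11.6 CPM against 24.9 ± 0.941 CPM (SD, n = 2; 1.48 ± 0.17, adjusted p 0.0187). Osmr is known from itch neurons among others. Nociceptor markers summed to 617 to 758 CPM in the mole TG and 4488 to 5838 CPM in the mole DRG (7 of 9 higher in the DRG). In the mouse they summed by label to 5745 to 5835 CPM in the TG and 3372 to 3389 CPM in the DRG (6 of 10 higher in the TG). No nociceptor marker was at 0 in all libraries, and the part of these neurons in the values of Il6st, Lifr and Osmr was not tested.

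Of 15 other cytokine receptors tested in the mole 5 were called, where all genes gave 23.5%. Csf1r (log2 fold change 1.45, adjusted p 0.0173) and Sigirr (2.05, 0.0238) were higher in the TG. Higher in the DRG were Kit (-3.62, 0.00756), Flt3 (-2.50, 0.0122) and Ghr (-1.74, 0.042). Csf1r is itself a macrophage gene and Kit is known from mast cells and some neurons. Of 6 other TNF family receptors 1 was called, Fas, the classical death receptor, higher in the mole TG (1.98, adjusted p 0.0414). In the mouse edgeR called 0 of 19 other cytokine receptors (7 at an unadjusted p under 0.05, 3 by DESeq2) and 0 of 8 other TNF family receptors (1 and 1). Kit had a log2 fold change by label of 0.43 (adjusted p 0.15) and Ghr of 0.52 (0.209), and Ngfr had 0.33 (0.376) and Relt 0.39 (0.475). Of 7 other chemokine receptors edgeR called 0 in each species, with 1 in the mole and 1 in the mouse at an unadjusted p under 0.05 and 1 and 0 called by DESeq2. The scavenger Darc was at 21.9 ± 22.4 CPM in the mole TG against 14.9 ± 1.53 CPM (0.55, adjusted p 0.557), and Ccbp2 had 0.43 (0.563). In the mouse Darc had a log2 fold change of 0.08 (0.782) and Xcr1 of 0.08 (0.923).

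Ligand lists are read against the same shares, 23.5% of all mole genes (10.5% toward the TG) and 2.33% of all mouse genes. Of 6 gp130 family ligands tested in the mole 2 were called, both higher in the TG, namely Cntf, a Schwann cell factor (log2 fold change 1.47, adjusted p 0.0332), and Clcf1 (2.18, 0.0368). In the mouse edgeR called 0 of 8, with 2 at an unadjusted p under 0.05 and 2 called by DESeq2, and Cntf had -1.24 by label (0.0862) and Il11 0.23 (0.741). Schwann cell markers summed to 8961 to 10265 CPM in the mole TG and 1536 to 3106 CPM in the mole DRG (5 of 7 higher in the TG), and by label to 3894 to 3912 CPM in the mouse TG and 9620 to 12820 CPM in the mouse DRG (6 of 7 higher in the DRG). Their part in the Cntf values was not tested. Among interleukins, 4 of 14 were called in the mole, with Il16 (2.30, 0.0231), Il17b (2.23, 0.0264) and Il34 (1.21, 0.0348) higher in the TG and Il18 (-2.89, 0.0496) higher in the DRG. Il16 was also the 1 of 19 called in the mouse, higher by label in the DRG (-1.61, 0.0123).

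Chemokine ligands called in the mole were Ccl19 (log2 fold change 2.86, adjusted p 0.0324) and Cxcl14 (2.53, 0.0465), 2 of 9 tested, both higher in the TG. In the mouse 2 of 29 were called, both higher by label in the DRG, namely Cxcl12, the ligand of Cxcr4 and Cxcr7 (-0.92, 0.0378), and Cxcl14 (-2.31, 0.0399). Of the TNF family ligands edgeR called 0 of 10 in the mole, with 4 at an unadjusted p under 0.05 and 2 called by DESeq2. It called 0 of 11 in the mouse, with 2 and 0. Tnfsf12, the ligand of Tnfrsf12a, was at 17.6 ± 2.45 CPM in the mole TG and 9.48 ± 1.18 CPM in the mole DRG (0.89, adjusted p 0.0725), and Eda had -0.51 (0.379). By label in the mouse Tnfsf12 had -0.55 (0.482) and Tnfsf10 0.23 (0.699).

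Genes that act downstream of the receptors were more often above the filter. Of 24 JAK, STAT and SOCS genes tested in the mole, 7 were called toward the DRG and 2 toward the TG, where 12.9% and 10.5% of all genes were. Jak1, the kinase of most gp130 and interferon receptors, was at 127 ± 23.7 CPM in the mole TG and 493 ± 24.4 CPM in the mole DRG (log2 fold change -1.95 ± 0.25, adjusted p 0.0077). Socs2 (-2.60, 0.0117) and Pias2 (-1.68, 0.0217) were also higher in the DRG. Of 36 adaptor and NF-kappaB genes, 7 were called toward the TG and 5 toward the DRG, read against the same shares, among them Nfkbib (1.87, 0.00772), Tollip (1.64, 0.0122), Nfkb2 (1.56, 0.0125) and Chuk (-1.90, 0.0145). In the mouse edgeR called 0 of 25 and 0 of 38 genes of these groups, with 9 and 3 at an unadjusted p under 0.05 and 2 and 1 called by DESeq2. By label Jak1 had 0.30 (0.348), Stat3 0.42 (0.138), Tollip 0.23 (0.43) and Traf3 -0.16 (0.666).

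Too low to judge in the mole were 31 of the 78 receptors, which fell below the filter on counts. Their highest count in any library was 3 to 161, and their total over the 6 libraries 3 to 196. They were Il11ra1, Il11ra2, Il12rb1, Il13ra2, Il15ra, Il23r, Il2ra, Il2rb, Il3ra, Il5ra, Il7r, Il20rb, Il22ra1, Il22ra2, Ccr2, Ccr3, Ccr4, Ccr6, Ccr7, Ccr8, Ccr9, Cxcr1, Cxcr6, Tnfrsf9, Tnfrsf17, Tnfrsf6b and the decoys or relatives Tnfrsf10c, Tnfrsf10d, Tnfrsf22, Tnfrsf23 and Tnfrsf26. In the mouse they were Ccr3, Ccr6, Cxcr1, Il20ra, Il22ra1 and Tnfrsf8, with totals of 4 to 47 counts at depths about 10 times those of most mole libraries. A gene that was low in the mole may also have aligned poorly to the transcripts of other species, which was not tested. Near-identical copies can share reads, so the values of Il11ra with Il11ra1 and Il11ra2, of Tnfrsf22, Tnfrsf23 and Tnfrsf26, and of Tnfrsf10b with Tnfrsf10c and Tnfrsf10d are uncertain.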

How the data were processed

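The authors sequenced poly-A RNA selected from total RNA of TG and DRG, and 10 of 12 samples were used. The other 2, both mouse, were not analysed here. The deposited values are read counts per gene, whole numbers with no normalization. Per the paper's methods, the authors aligned reads with Stampy 1.0.11 (substitution rate 0.03), mole reads to human transcripts first, next to dog and last to mouse, and summed a gene's reads over its HomoloGene (build 64) homologs, while mouse reads were aligned to mouse transcripts. Reads that cross species can be lost where a sequence has diverged, so levels were ranked within a species and not compared between mole and mouse. Lists of genes called by the authors were also deposited and were not used.

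The test used edgeR 4.0.16 under R 4.3.3 (filterByExpr with a minimum count of 10, TMM factors, glmQLFit and glmQLFTest) over all genes of a species, TG against DRG, and as an interaction over the 24049 symbols in both tables. P-values were adjusted by Benjamini-Hochberg over all genes tested, with a threshold of 0.05. The SE is the size of the log2 fold change divided by the square root of F. CPM use the TMM factors. Positions, lengths and GC content are those of GENCODE M21 (GRCm38), and 72 receptors had a length. Whether replicates came from separate animals was given in part, so p-values measure the spread between these libraries. Named genes were the receptors called in any comparison, the 10 with the highest level per length in each species, and up to 4 genes per pathway list and species (called ones by smallest adjusted p, otherwise the 2 of highest mean level). A few genes that the rule takes are not reported here. Genes named beyond that rule were chosen after their values were seen. The receptors and lists were chosen with earlier results of these data known. Alternatives were DESeq2 1.42.0, RLE factors, no filter, each library left out, a replicate block, thinned counts, GC offsets (loess, span 0.3) alone and with the block, the TruSeq libraries alone, the data without mole TG 1 and mole DRG 2, a z test, and the mouse labels exchanged (added after seeing the data). The test was tried on simulated data first, with 67, 67 and 66 genes changed 2, 4 and 8-fold in each comparison. It called 0%, 5.97% and 50% of these in the mole, and 31.3%, 68.7% and 86.4% in the mouse. For the interaction it called 1.49%, 0% and 4.55%. Genes left unchanged were called 2 times in the mole, 15 times in the mouse and 0 times in the interaction. Fewer genes were changed there than the test called in these data, and adjusted p-values depend on that number. The rates are therefore not those of the tests used here. A receptor that was not called may still differ.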

Additional observations from a re-analysis of the deposited data

Results flagged for a closer look

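For 8 receptors the difference between TG and DRG was not the same in the mole as in the mouse by label, by the interaction test of edgeR (adjusted p under 0.05). Given as the mole log2 fold change minus that of the mouse, Tnfrsf25 had 4.12, Tnfrsf12a 3.11 and Tnfrsf18 2.23, all more positive in the mole. Il13ra1 had -3.76, Il6st -3.56, Tnfrsf11b -3.53, Ifngr1 -3.09 and Tnfrsf21 -1.63, all more negative in the mole. The size of each depends on the mouse labels, which the Hox genes contradicted. The species differed also in sex, strain and the transcripts the reads were aligned to, which cannot be told apart from species. If the mouse labels were exchanged, the sign of every mouse fold change would turn and in such a fit, added after seeing the data, Tnfrsf18 (3.29), Il13ra1 (-3.15), Ifngr1 (-3.14), Tnfrsf11b (-2.93) and Tnfrsf21 (-1.76) were called, while Tnfrsf25 (1.06, adjusted p 0.299), Tnfrsf12a (0.37, 0.789) and Il6st (-1.82, 0.243) were not.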

How the results depend on the processing

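No receptor reversed its direction among those called. Of the single-gene values recomputed, 408 stayed on the same side of the threshold, 96 lost it and 33 gained it. In the mole, where 9 receptors were called, the count was 28 without mole TG 1 and mole DRG 2, 3 with GC offsets and a replicate block, and 1 to 20 with 1 library left out (20 without mole DRG 2, 14 without mole TG 1, 2 without mole TG 2, mole TG 3 or mole DRG 3, 1 without mole DRG 1). In the mouse, where 2 were called, it was 9 with DESeq2, 5 without a filter, 4 with GC offsets (1 higher by label in the TG and 3 in the DRG), 1 with GC offsets and a replicate block, and 0 to 14 with 1 library left out (0 without mouse TG 1 or 2, 14 without mouse DRG 1, 11 without mouse DRG 2). Mouse fits with 1 library in an arm assume that it varies like the others. For the difference between species, called for 8, the count was 15 with DESeq2, 3 with GC offsets, 5 with GC offsets and a replicate block, 5 with the mouse labels exchanged, 14 in the TruSeq libraries alone, 28 without mole TG 1 and mole DRG 2, 16 by the z test, which could be made for 44 receptors, and 2 to 19 with 1 library left out (19 without mole DRG 2, 18 without mole TG 1, 4 without mole TG 2, 4 without mouse DRG 1, 3 without mouse TG 1, and 2 without either mouse TG 2 or mouse DRG 2). Shares of all genes called under these other settings are not given, so the counts are not read as results about the receptors. The causes were not tested.

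The labels number the replicates of each ganglion alike. Deviations from the group means correlated at 0.244, 0.417 and -0.107 for mole pairs 1, 2 and 3, and mole TG 3 correlated best with mole DRG 2, so the numbers were not taken as pairs. A replicate block gave 8 mole calls, 3 mouse calls and 9 for the difference between species. Mouse pairs correlated at -0.369, and a block with the numbers crossed, chosen after seeing the data, gave 10 mouse calls. GC offsets over all mole genes are void as a check, since 75.6% of those tested have a GC value, while 93.6% of the receptors tested have one.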

Other observations

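Values of receptor genes that neighbour each other in the mouse genome (GRCm38) are set side by side here, and differences between neighbours were not tested. The cluster on mouse chromosome 16 from 91372783 to 91565623 holds Ifnar2, Il10rb, Ifnar1 and Ifngr2, and their mole log2 fold changes were -2.52, -1.23, -0.24 and -0.98, all toward the DRG and none called (adjusted p 0.0714, 0.126, 0.756 and 0.0955). Their mouse values by label were -0.38, 0.25, 0.27 and 0.14, none called. The transcripts of Ifnar2 and Il10rb overlap a read-through gene, Gm21970, in the annotation. On chromosome 1, Il1r2, Il1r1 and Il18r1 lie between 40074079 and 40500854, with mole log2 fold changes of -2.03, -1.86 and -0.81 (adjusted p 0.16, 0.0986 and 0.425) and mouse values by label of 1.21, 0.21 and 0.44. Ifngr1 on chromosome 10 neighbours Il20ra, whose mole log2 fold change was 1.33 (adjusted p 0.137) against -2.70 for Ifngr1.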
